A study of Mus musculus with 136 samples.

Results

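Nfkbia and Tnip3 are grouped here as negative feedback genes of the signalling pathway that switches them on, and inhibition by their proteins was not tested. They are 2 of the 15196 genes in the deposited expression table and were taken from it by their symbols, whatever their values were. Nfkbia encodes IκBα, which holds NF-κB dimers in the cytoplasm until it is degraded, and NF-κB that then enters the nucleus transcribes Nfkbia again. Tnip3 encodes ABIN-3, a member of the A20-binding inhibitor family, whose proteins bind the ubiquitin-editing enzyme A20 and ubiquitin chains upstream of the IκB kinase. Lipid A, the active moiety of lipopolysaccharide, signals through Toll-like receptor 4, and TNFa signals through TNF receptors. In many cell types resynthesis of IκBα shapes the NF-κB response to TNFa into pulses, while responses to lipopolysaccharide tend to be more sustained.

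The cells were mouse bone marrow-derived macrophages (BMDM), grown from the marrow of wild-type mice (strain written C57/B16 in the labels) or of knockout mice with M-CSF, and the labels give no age. Chromatin-associated RNA was sequenced in 113 libraries and polyA RNA in 23. Lipid A courses of 0, 0.5, 1, 2 and 6 h in chromatin RNA compared Nfkb1-/- with wild-type BMDM and Nfkbid-/- with wild-type BMDM (3 libraries per genotype and time each), and Nfkbiz-/- and Bcl3-/- each with their own wild type (2 libraries per genotype and time). Further chromatin libraries, 1 per condition, came from wild-type BMDM given TNFa for the same times, and from wild-type BMDM pretreated with DMSO or an ERK inhibitor and sampled at 0, 15, 30 and 60 min of lipid A. The polyA libraries came from wild-type BMDM given lipid A or TNFa for the same 5 times with a shared unstimulated library, from control and IkBz-overexpressing BMDM of wild-type genotype (unstimulated, TNFa for 2 h or lipid A for 2 h), and from J2 BMDM that were wild-type, Nfkb1-/- or Nfkb1-/-, Nfkb2-/-, unstimulated or given lipid A for 2 h. The first 2 of these polyA sets have 1 library per condition, as do the J2 wild-type and Nfkb1-/- cells, while the J2 Nfkb1-/-, Nfkb2-/- cells have 2. The labels do not say whether numbered replicates came from separate animals or cultures, so p-values measure the spread between these libraries, which may be technical. They give no construct for the overexpression and no clone for the J2 cells.

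In the mm9 genome build used by the table, Nfkbia (NM_010907) spans 3239 bp at chr12:56590396-56593634, and Tnip3 (NM_001001495) spans 43643 bp at chr6:65540392-65584034. No other gene of the table overlaps either span. The nearest genes in the table are Insm2, 106269 bp from Nfkbia, and Ndnf, 37570 bp from Tnip3. The 250 bases upstream of each RefSeq start are shown because Nfkbia is a textbook NF-κB target and chromatin RNA of both genes rose within 0.5 h of stimulation. They are from RefSeq on the GRCm38.p6 build, which is not the build of the table, at chr12:55492648-55492897 on the minus strand for Nfkbia and at chr6:65590148-65590397 on the plus strand for Tnip3. They read 5′ to 3′ towards the start, and capitals mark every match of a broad κB pattern, GGG then any 5 bases then CC, on either strand.
Nfkbia: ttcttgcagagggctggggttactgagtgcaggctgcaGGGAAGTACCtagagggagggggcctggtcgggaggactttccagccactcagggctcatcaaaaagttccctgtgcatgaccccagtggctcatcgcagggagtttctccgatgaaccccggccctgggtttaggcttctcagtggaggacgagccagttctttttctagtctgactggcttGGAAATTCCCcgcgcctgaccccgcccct
Tnip3: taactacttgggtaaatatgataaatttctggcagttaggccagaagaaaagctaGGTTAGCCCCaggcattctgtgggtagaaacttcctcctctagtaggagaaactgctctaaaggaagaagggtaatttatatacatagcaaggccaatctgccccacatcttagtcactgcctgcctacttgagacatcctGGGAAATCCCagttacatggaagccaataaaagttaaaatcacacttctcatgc

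Both windows hold 2 matches of the broad pattern. In Nfkbia they begin 212 and 29 bases before the start, and in Tnip3 195 and 54 bases before it. The match nearest the start in each gene also fits a stricter κB pattern, GGGA, any base, TT, any base, CC. Searched over 300 bases, which reach 50 bases past the start, neither gene has a further match of either pattern. Of all 32851 RefSeq windows of 300 bases, 50.8% hold the broad pattern and 1.20% the stricter one on either strand. The GC content of the printed bases was 59.2% for Nfkbia and 42.4% for Tnip3. A match describes letters in the window and not a bound site.

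Values are RPKM, reads scaled to gene length and library depth. Of the chromatin libraries, whose reads were counted over whole gene spans, the recovered depth was 7.86 to 45.3 M reads (median 28.8 M). Nfkbia rested on 87 to 109958 recovered reads per chromatin library and Tnip3 on 94 to 107325. Of 8 listed macrophage markers 5 were in the table, and 4 of them had a chromatin median of 1 RPKM or more, while no listed marker of granulocytes, dendritic cells, lymphocytes, mast cells, erythroid cells or stroma did. In polyA RNA all 6 granulocyte and precursor markers in the table had a median of 1 RPKM or more, with a summed level of 0.774 to 204 RPKM, and their part in the polyA results was not tested. The 10 libraries of replicate 1 in the Nfkbid series stand apart in both genotypes, with the nuclear RNA Malat1 at 6.92 to 19.4 RPKM against 823 to 1640 RPKM in the other 20 libraries of that series. The labels name chromatin RNA for them as for the rest, and whether they hold the same RNA fraction was not tested. The Nfkb1 transcript did not separate the genotypes (1.33 to 24.0 RPKM in wild type, 0.703 to 21.3 in libraries labelled Nfkb1-/-, 15 each), and Bcl3 was at 2.20 to 18.1 RPKM in wild type and 8.79 to 40.9 in libraries labelled Bcl3-/- (10 each). A whole-gene value does not isolate a deleted part, so it does not check the labels.

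Lipid A raised chromatin RNA of both genes within 0.5 h in wild-type cells, and both were above the unstimulated level at all 4 later times. Before lipid A, Nfkbia was at 2.95 to 29.4 RPKM over the 10 wild-type libraries of the 4 knockout series (median 4.04). At 0.5 h it was at 94.3 to 877 RPKM (median 127), and at 6 h at 44.8 to 321 (median 64.9). The highest library at each time was replicate 1 of the Nfkbid series, and no stimulated library fell within the unstimulated range. Without that library, the mean was 4.02 ± 0.845 RPKM (SD, n = 9) at 0 h and 120 ± 18.4 at 0.5 h. It was then 92.0 ± 15.6, 70.8 ± 11.3 and 61.2 ± 10.3 RPKM at 1, 2 and 6 h.

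Tnip3 started lower, at 0.602 to 2.92 RPKM (median 1.73, n = 10). It was at 7.85 to 62.8 RPKM at 0.5 h (median 45.5), at 5.56 to 70.2 at 1 h (median 28.3), at 9.71 to 47.6 at 2 h (median 35.0) and at 10.1 to 71.8 at 6 h (median 52.6). Every stimulated library was above every unstimulated one. The low ends were replicate 1 of the Nfkbid series at 0.5 h and replicate 1 of the Nfkb1 series at 1, 2 and 6 h. Without the Nfkbid library, the mean was 1.84 ± 0.845 RPKM (SD, n = 9) at 0 h and 46.7 ± 14.4 at 0.5 h, and then 34.4 ± 20.7, 33.6 ± 13.5 and 49.3 ± 17.0 at 1, 2 and 6 h. In bulk RNA, fewer responding cells and less RNA per cell cannot be told apart.

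On the log2(RPKM + 0.5) scale, Nfkbia rose over 0 h by 4.76, 4.33, 3.95 and 3.74 at 0.5, 1, 2 and 6 h (SE 0.35, limma, adjusted p = 2.87e-15, 2.55e-14, 2.35e-13 and 1.71e-12). Tnip3 rose by 4.06, 3.61, 3.76 and 4.33 (SE 0.34, limma, adjusted p = 1.83e-13, 2.76e-12, 6.75e-13 and 1.35e-14). Without replicate 1 of the Nfkbid wild type, the 4 rises of Nfkbia were 3.77 to 4.75 (SE 0.13) and those of Tnip3 3.69 to 4.36 (SE 0.33), and all 8 were called by limma. A gene was called where the limma adjusted p was under 0.05 and the difference at least 2-fold. The background of genes called higher was 4.62%, 5.21%, 7.94% and 7.31% of 5893 genes at the 4 times. The median gene differed from 0 h by -0.47, -0.39, -0.40 and -0.35 on the log2 scale, while both genes were higher.

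After the first rise the pair moved in opposite directions in every numbered course only from 2 to 6 h. Nfkbia rose from 0 to 0.5 h in 10 of 10 numbered courses and then fell at each of the 3 later steps in 10 of 10. The share of 5155 genes that fell in all 10 was 13.6% from 0.5 to 1 h, 12.8% from 1 to 2 h and 13.4% from 2 to 6 h. Tnip3 rose in 10 of 10, fell in 7 of 10 from 0.5 to 1 h, rose in 5 of 10 from 1 to 2 h, and rose again in 10 of 10 from 2 to 6 h, as 13.9% of genes did. In the means over 9 libraries, Nfkbia went from its maximum at 0.5 h to 76.4%, 58.8% and 50.8% of it at 1, 2 and 6 h. Tnip3 was at 94.7% of its maximum at 0.5 h, then at 69.8% and 68.1%, and peaked at 6 h.

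None of these later steps was called, beside 2.43%, 4.29% and 2.17% of genes called lower and 2.99%, 5.62% and 3.11% called higher over the 3 steps. The Nfkbia steps were -0.43, -0.37 and -0.21 on the log2 scale (limma, adjusted p = 0.42, 0.54 and 0.79), and the Tnip3 steps were -0.45, 0.15 and 0.57 (adjusted p = 0.40, 0.88 and 0.28). With series and replicate number as a block, the limma adjusted p of the Nfkbia steps was 2.38e-05, 1.94e-04 and 0.0282 and that of the last Tnip3 step 0.0401, each still under 2-fold.

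The ratio of Tnip3 to Nfkbia within a library sets the courses against each other in 1 number that library scaling does not touch apart from the pseudocount. Its mean log2 was -1.26, -1.97, -1.98, -1.46 and -0.67 over the 5 times (n = 10 each). By a two-sided exact permutation test within series, no step passed, with adjusted p = 0.464, 0.989, 0.464 and 0.464 over the 4 steps. Paired within the numbered courses, a comparison added after the values were seen, the ratio fell in 9 of 10 from 0 to 0.5 h (mean change -0.70), rose in 8 of 10 from 1 to 2 h (0.52) and rose in 10 of 10 from 2 to 6 h (0.78). The exact two-sided sign-flip test gave adjusted p = 0.00781, 0.0260 and 0.00781 for these steps, and for the last the raw p of 0.00195 is the smallest that 10 pairs allow. From 0.5 to 1 h the ratio rose in 5 of 10 and the adjusted p was 0.969 by the same exact test. Without replicate 1 of the Nfkbid wild type, whose own change from 0 to 0.5 h was -3.27, the mean changes of the 3 steps that had passed were -0.42, 0.49 and 0.77, and the exact adjusted p 0.0156, 0.0521 and 0.0156 (n = 9), so that the step from 1 to 2 h no longer passed.

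**Figure D1:**
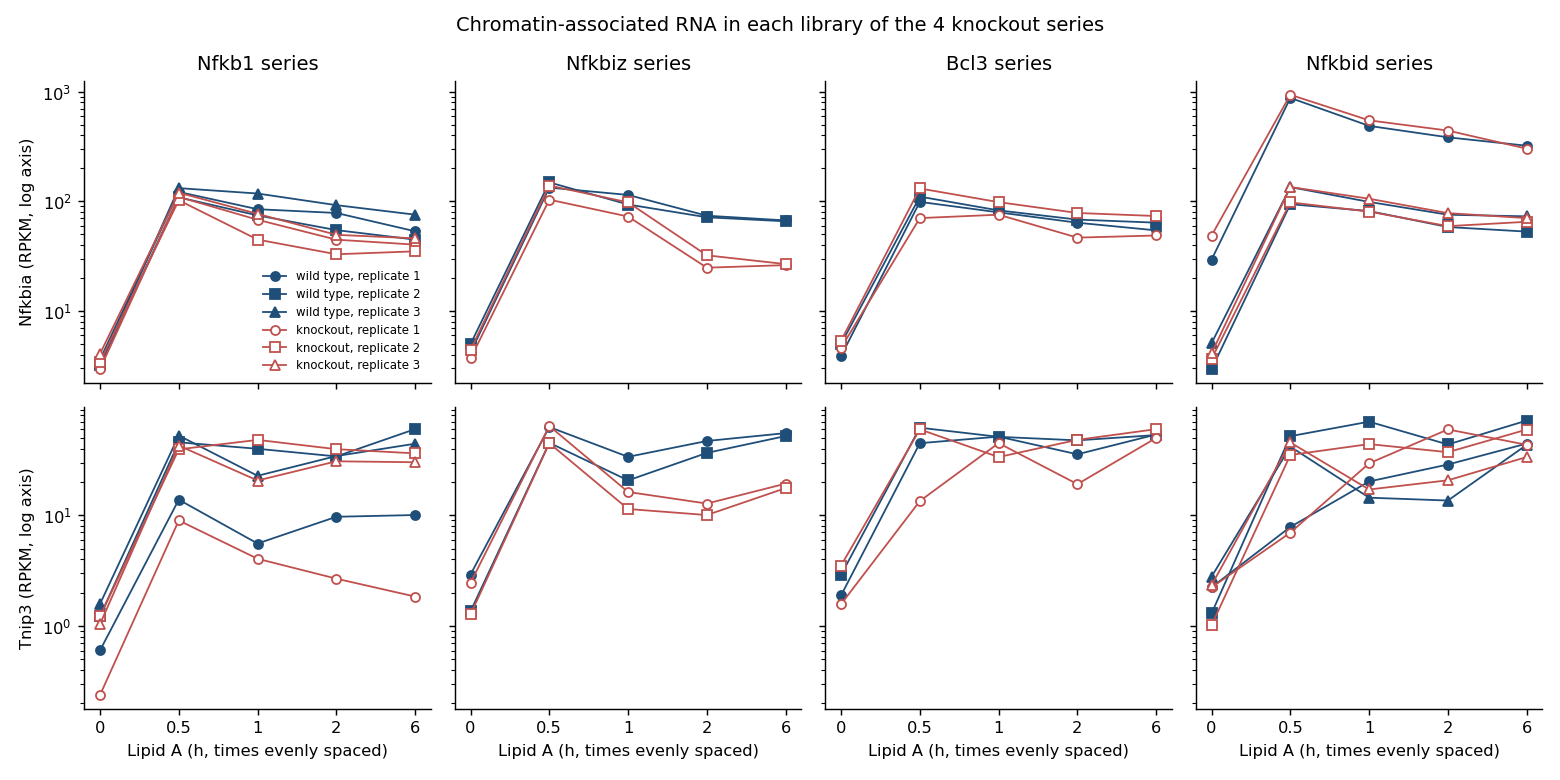
RPKM (log axis) of Nfkbia (top) and Tnip3 (bottom) in each chromatin library against hours of lipid A, 1 panel per knockout series, with lines joining libraries of the same replicate number. Nfkbia is highest at 0.5 h in every wild-type course, replicate 1 of the Nfkbid series lies above the rest in Nfkbia, and the Nfkbiz-/- libraries lie below wild type at 2 and 6 h for both genes.

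The genes most similar to each in wild-type course were named by correlation alone. Over the 20 means of series and time, centred within series, Ccl3 had a Pearson correlation of 0.987 with Nfkbia, followed by Gadd45b at 0.987, Ehd1 at 0.986, Ccl4 at 0.983 and Cybb at 0.980. Ccl3 and Ccl4 encode chemokines, Gadd45b a stress-response protein, Ehd1 an endocytic recycling protein and Cybb the catalytic subunit of the phagocyte NADPH oxidase. For Tnip3 the highest were Sod2 at 0.992, Slc15a3 at 0.977, Ralgds at 0.976, Dusp2 at 0.973 and Slfn2 at 0.969. Sod2 encodes the mitochondrial superoxide dismutase, Slc15a3 a lysosomal peptide and histidine transporter, Ralgds a Ral guanine nucleotide exchange factor, and Dusp2 a dual-specificity MAP kinase phosphatase. Among the 2127 genes compared, all chosen as called in the lipid A response, Tnip3 ranked 20 for Nfkbia. In the same set Nfkbia ranked 13 for Tnip3, both with a correlation of 0.951. These are descriptions over means that share their libraries.

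Of the other genes of the pathway, the tested part of the IκB and NF-κB family was above 0 h together with Nfkbia. Only 5 of its 11 listed genes were tested. All 5 of its 5 tested members, Nfkbia among them, were called higher at 0.5, 1 and 2 h and 4 at 6 h. The background called higher was 4.62%, 5.21%, 7.94% and 7.31% of all genes at these times. The median log2 difference of the list was 1.72 at 0.5 h against -0.47 over all genes. From 0.5 to 1 h, 2 of the 5, Bcl3 and Nfkb1, were called higher, beside 2.99% of all genes. The list median of this step was 0.36 against 0.04 over all genes, while the change of Nfkbia was -0.43 and not called. At 0.5 h Rel, a transactivating NF-κB subunit, rose by 2.14, Rela by 1.72 and Nfkb1, which encodes the p105 precursor of p50, by 1.61. The group that holds Tnip3, the A20, ABIN and ubiquitin regulators, has 13 listed genes, of which 8 were tested. These moved less together: 1, 2, 3 and 3 of the 8 were called higher at 0.5, 1, 2 and 6 h and 1, 1, 2 and 0 lower. The background called higher was again 4.62%, 5.21%, 7.94% and 7.31% of all genes, and that called lower 13.7%, 15.4%, 16.7% and 13.4%. Among the 8 tested, Tnip3 alone was called higher at 0.5 h, and Tnfaip8l2, which encodes the immune inhibitor TIPE2, fell by 1.89 there. Tnip2, which encodes ABIN-2, went from 2.38 RPKM at 0 h to 1.51 at 0.5 h and 3.93 at 6 h (means of 10), with log2 differences of -0.52 and 0.61 (limma, adjusted p = 3.41e-04 and 4.35e-05), under 2-fold in both directions. Tnfaip3, Tnip1, Nfkbib and Nfkbie were not analysed here.

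Among 11 tested feedback regulators of other kinds, 8, 8, 7 and 9 were called higher at the 4 times and 1, 1, 2 and 1 lower, beside 4.62%, 5.21%, 7.94% and 7.31% of all genes higher and 13.7%, 15.4%, 16.7% and 13.4% lower. At 0.5 h Dusp1, a MAP kinase phosphatase, rose by 5.21, Socs3, a cytokine receptor inhibitor, by 4.69, Zfp36, an mRNA decay factor, by 3.47, and Atf3, a repressor of cytokine genes, by 3.29. Of 12 tested receptors and kinases upstream of IκBα, 3 were called higher at each time, at 0.5 h Cd14 (2.79), Irak2 (1.79) and Tnfrsf1b (1.63). The numbers called lower were 3, 3, 1 and 2 of 12, at 0.5 h Tab1 (-1.36), Tlr4 (-1.13) and Tradd (-1.05).

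In the Nfkbiz series, which asks what the nuclear IκB protein IκBζ contributes, both genes were at similar values in the genotypes at 0.5 h and fell in Nfkbiz-/- relative to wild-type cells at 2 and 6 h. Nfkbia at 0.5 h was at 133 and 149 RPKM in wild type and at 104 and 139 in Nfkbiz-/- (replicates 1 and 2), overlapping. At 2 h it was at 74.0 and 71.6 against 24.9 and 32.2, and at 6 h at 67.0 and 65.8 against 26.2 and 26.8. Both Nfkbiz-/- libraries lay below both wild-type ones at 2 and 6 h, with means at 39.2% and 39.9% of wild type.

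Tnip3 at 0.5 h was at 62.8 and 45.2 RPKM in wild type and at 64.1 and 44.9 in Nfkbiz-/-. At 1 h it was at 33.8 and 20.7 against 16.3 and 11.4, at 2 h at 47.0 and 36.6 against 12.8 and 10.1, and at 6 h at 55.3 and 52.1 against 19.3 and 17.6. The groups overlapped at 0.5 h and were apart from 1 h on, with the Nfkbiz-/- mean at 50.8%, 27.3% and 34.4% of wild type at 1, 2 and 6 h. Such separation was common in this series: in 29.2% of 4885 genes both knockout libraries lay below both wild-type ones at 1 h, in 38.0% at 2 h and in 52.4% at 6 h.

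Nfkbia fell by 1.35 ± 0.21 (SE) on the log2 scale at 2 h and by 1.31 ± 0.21 at 6 h (limma, adjusted p = 0.00318 and 0.00116), and Tnip3 by 1.83 ± 0.35 and 1.51 ± 0.35 (adjusted p = 0.00966 and 0.0106). The background called lower was 1.19% of 4885 genes at 2 h and 3.62% at 6 h. At 2 h 19 genes fell further than Tnip3 and 47 further than Nfkbia, and at 6 h 56 and 99 did. At 1 h Tnip3 was at -0.93 ± 0.35 (adjusted p = 0.314 in limma, 0.0187 with the replicate block and still under 2-fold), and Nfkbia at -0.29, beside 0.553% of genes called lower. At 0 and 0.5 h the differences were -0.16 and -0.23 for Nfkbia and -0.14 and 0.01 for Tnip3, none of them called.

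All 4 calls were kept with the replicate block and with each library centred on its median gene, where the median gene itself was at -0.09 at 2 h and -0.24 at 6 h. They depend on small groups. Without wild-type replicate 1 none of the 4 was called (limma, adjusted p = 0.0672 to 0.166), without wild-type replicate 2 Nfkbia at 2 h was lost (0.0660), without Nfkbiz-/- replicate 1 only 1 was kept, and without Nfkbiz-/- replicate 2 only those of Nfkbia. A fit that shares 1 spread over all 4 series called none.

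**Figure D2:**
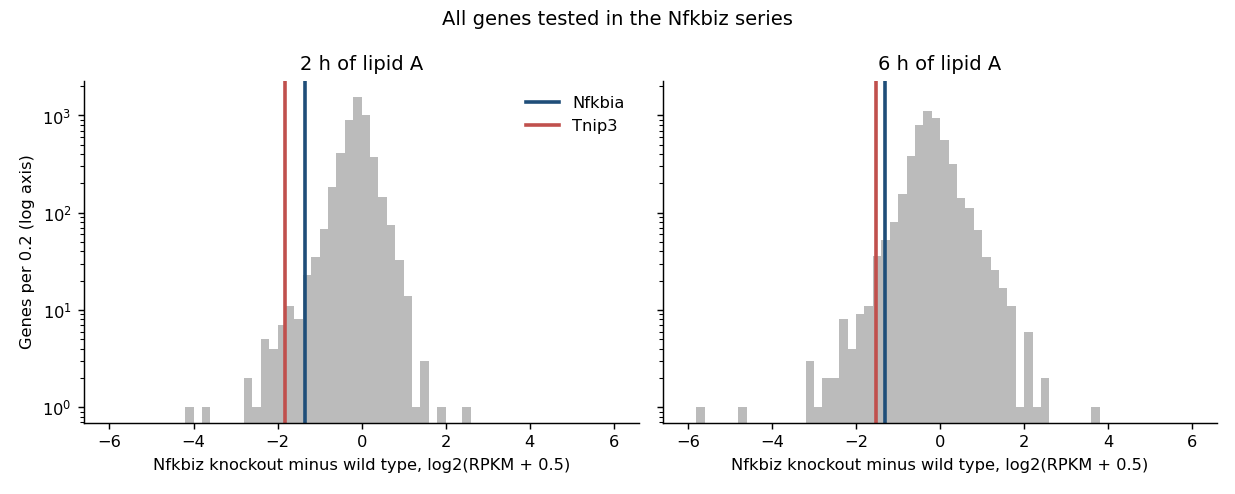
Number of genes (log axis) by log2 difference between Nfkbiz-/- and wild type for the 4885 tested genes at 2 h and 6 h of lipid A, with vertical lines at Nfkbia and Tnip3. At 2 h 0.962% of genes lie to the left of Nfkbia and 0.389% to the left of Tnip3, and at 6 h 2.03% and 1.15%.

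The timing can be put as a contrast: whether the knockout difference at a later time exceeds that at 0.5 h, when both genotypes were near their peak. For Nfkbia this change was -1.12 ± 0.30 (SE) at 2 h and -1.08 ± 0.30 at 6 h, and for Tnip3 -1.84 ± 0.49 and -1.52 ± 0.49. None was called without pairing (limma, adjusted p = 0.183, 0.0753, 0.174 and 0.129), and with the replicate block 3 of the 4 were (0.0515, 0.0214, 0.00346 and 0.00322). With the block, the background called lower in this contrast was 0.901% at 2 h and 2.4% at 6 h. The contrast with 0.5 h was added after the values were seen. Taken from 0 h instead, the change was -1.19 at 2 h and -1.15 at 6 h for Nfkbia and -1.69 and -1.38 for Tnip3. None of these was called without pairing (limma, adjusted p = 0.134, 0.0526, 0.223 and 0.170), and all 4 were with the replicate block (0.0360, 0.0143, 0.00583 and 0.00613), beside 1.02% of genes called lower at 2 h and 2.46% at 6 h. With a block at each time Nfkbia at 2 h was not (0.0576).

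Of all genes tested in the Nfkbiz series, 1.19% were called lower at 2 h and 3.62% at 6 h. Nfkbia was the 1 of 5 tested family members called at 2 and 6 h, and Tnip3 the 1 of 8 tested in the A20 and ABIN list. Of 11 other feedback regulators Dusp1 and Il10 were called at both times, and of 12 receptors and kinases Tnfrsf1b. Dusp1 was at -4.13 at 2 h and -3.14 at 6 h on the log2 scale, and Tnfrsf1b, the TNF receptor 2 gene, at -2.40 and -2.83. Il10, an anti-inflammatory cytokine gene, was at -1.78 at 2 h and 1.01 at 6 h, when 1.84% of genes were called higher. Tnip2 was 0.68 higher at 6 h (limma, adjusted p = 0.0086), under 2-fold and opposite to Tnip3, with 4.45 and 4.73 RPKM in wild type and 7.45 and 7.82 in Nfkbiz-/-.

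In the Nfkb1 series, which removes p105 and p50, Nfkbia was lower in Nfkb1-/- than in wild-type libraries of the same number at 0.5, 1, 2 and 6 h, in 3 of 3 each. At 0 h it was lower in 1 of 3. The share of all genes lower in 3 of 3 was not taken, so this count has no background. At 2 h it was at 78.4, 54.7 and 92.3 RPKM in wild type and at 44.8, 32.9 and 49.5 in Nfkb1-/-. This was the only time without overlap, with the Nfkb1-/- mean at 56.5% of wild type, and 5.77% of 4523 genes were apart in the same way. At 1 h it was at 84.8, 74.4 and 118 against 67.9, 44.8 and 76.9, and at 6 h at 53.4, 44.8 and 75.6 against 40.3, 35.0 and 46.0.

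No Nfkbia difference was called in this series. At 2 h it was -0.81 ± 0.31 (SE; limma, adjusted p = 0.962), and 0.376% of genes were called lower. With the replicate block the adjusted p was 0.0256, at under 2-fold. With that block 0.951% of genes were called lower at 2 h. At 0, 0.5, 1 and 6 h the differences were 0.04, -0.13, -0.55 and -0.49, beside 0.0663% and 0.597% of genes called lower at 0.5 and 1 h.

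Tnip3 in the Nfkb1 series varied more between replicates than between genotypes. It was lower in Nfkb1-/- in 3 of 3 numbered pairs at 0.5 and 6 h, and in 2 of 3 at 0, 1 and 2 h. At 6 h it was at 10.1, 60.1 and 44.4 RPKM in wild type and at 1.84, 36.3 and 30.2 in Nfkb1-/-, and at 2 h at 9.71, 34.1 and 34.3 against 2.68, 39.6 and 30.8. Replicate 1 was the lowest of each genotype at both times, and the genotypes overlapped at all 5 times. Replicate 1 was also sequenced less deeply. At 2 h Nfkbia rested there on 2924 recovered reads in wild type and 1139 in Nfkb1-/-. In replicates 2 and 3 it rested on 4142 and 9005 reads in wild type and 3241 and 4365 in Nfkb1-/-. Whether depth bears on the Tnip3 level was not tested. At 6 h the difference was -1.15 ± 1.06 (SE; limma, adjusted p = 1.00 after rounding), with 0.221% of genes called lower. With a replicate block fitted at each time it was called (adjusted p = 0.0354, background 0.906%), and without replicate 1 of both genotypes it was -0.63 and under 2-fold. At 0, 0.5, 1 and 2 h the differences were -0.34, -0.37, -0.10 and -0.54, none called. Their signs turned in some fits that left out 1 replicate number of 1 genotype at all times.

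The Bcl3 and Nfkbid series gave no called difference for either gene at any time, and no gene of 4740 and 5367 tested was called there. With limma's p left unadjusted (under 0.05, at least 2-fold), at most 9 genes were lower and 16 higher at any time in the Bcl3 series, and at most 0 and 1 in the Nfkbid series. In the Bcl3 series at 2 h Nfkbia was at 63.9 and 68.2 RPKM in wild type and at 46.7 and 78.3 in Bcl3-/-, and at 6 h at 54.4 and 63.9 against 48.8 and 73.5. Tnip3 at 0.5 h was at 44.9 and 61.9 against 13.5 and 59.8. The low value is Bcl3-/- replicate 1: the difference was -0.88 ± 0.58 (SE; limma, adjusted p = 1.00 after rounding), and without Bcl3-/- replicate 2 it was -1.93 and called (0.00382), as were 9.77% of genes in that direction in that fit. Tnip3 at 2 h was then called too (-1.09, 0.0324), beside 4.09% of genes.

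In the Nfkbid series at 2 h Nfkbia was at 384, 58.3 and 75.5 RPKM in wild type and at 442, 59.4 and 78.1 in Nfkbid-/-. Replicate 1 was several-fold above the others in both genotypes while each Nfkbid-/- library was close to the wild-type library of its number. The difference at 2 h was 0.09 ± 1.28 (SE), and without replicate 1 of both genotypes 0.04 ± 0.34. Tnip3 was at 28.8, 43.7 and 13.6 RPKM in wild type and at 59.7, 37.2 and 20.7 in Nfkbid-/- at 2 h, a difference of 0.47 ± 0.78. Replicate 1 of Tnip3 did not share the high level seen in Nfkbia: at 0.5 h its wild-type library was at 7.85 RPKM against 51.9 and 41.8.

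**Figure D3:**
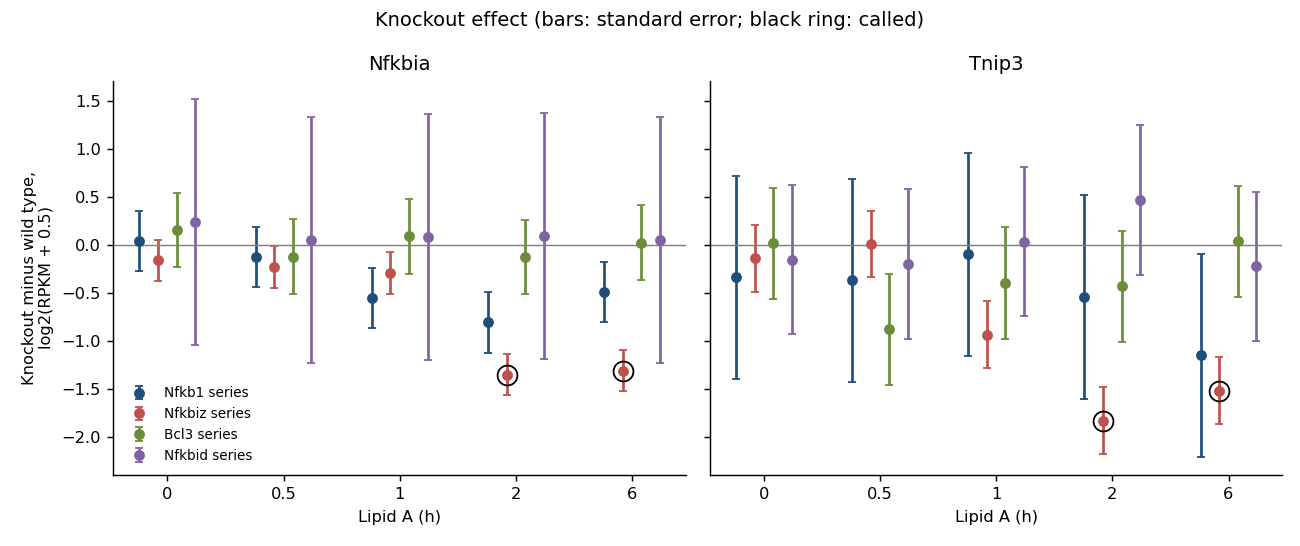
Log2 difference between knockout and wild type (limma estimate ± SE) for Nfkbia and Tnip3 against hours of lipid A in the 4 knockout series, with a ring around called values. The ringed values are those of the Nfkbiz series at 2 and 6 h, and the bars of the Nfkbid series are widest for Nfkbia.

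Whether the Nfkbiz-/- and Nfkb1-/- effects differ was tested as a difference of the 2 differences. For Nfkbia it was -0.54 at 2 h (limma, adjusted p = 1.00 after rounding) and -0.82 ± 0.41 (SE) at 6 h (0.538, and 0.0306 with the replicate block at each time, at under 2-fold). For Tnip3 it was -1.29 ± 1.43 at 2 h and -0.37 at 6 h. None of the 10 contrasts was called, beside a background of 0.502% called lower at 6 h. The call in the Nfkbiz series and its absence in the Nfkb1 series therefore do not show that the effects of these knockouts differ.

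Under TNFa, chromatin RNA of both genes peaked at 0.5 h, was low at 1 h and higher again at 2 and 6 h. Nfkbia was at 4.45 RPKM before TNFa, at 65.5 at 0.5 h (95% counting interval 63.6 to 67.3), and at 14.7 at 1 h (13.9 to 15.7). It was then at 21.0 at 2 h (19.6 to 22.6) and 28.3 at 6 h (27.0 to 29.6). The level at 1 h was 22.5% of the peak, and at 6 h 43.2%. With 1 library per time there is no replicate check, and the exact Poisson intervals cover counting error only.

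Tnip3 made the same turn more deeply. It was at 1.45 RPKM before TNFa, at 44.4 at 0.5 h (44.0 to 44.8), and at 2.70 at 1 h (2.60 to 2.81). It was then at 6.02 at 2 h (5.80 to 6.23) and 7.02 at 6 h (6.85 to 7.20). From 0.5 to 1 h the log2 step was -3.81 for Tnip3 and -2.11 for Nfkbia. From 0 to 0.5 h 7.54% of 4391 genes were at least 2-fold up. A step of at least 2-fold down from 0.5 to 1 h was seen in 6.04%, and a step as large in 0.0455% for Tnip3 and 0.774% for Nfkbia. From 1 to 2 h Tnip3 went up by 1.02, which 2.12% of genes matched at 2-fold or more, and Nfkbia by 0.50.

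A rise of at least 2-fold followed by a fall of at least 2-fold was shared by 200 genes, 4.56% of those measured. The sequence of Nfkbia, with both later steps under 2-fold, was shared by 166 genes. That of Tnip3, with a further rise of at least 2-fold from 1 to 2 h, was shared by 27 genes, 0.615%.

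Set against the 10 wild-type lipid A libraries, the TNFa library at 0.5 h was below all of them for Nfkbia (94.3 to 877 RPKM) and within their range for Tnip3, where 7 of 10 were above it. At 1, 2 and 6 h all 10 lipid A libraries were above the TNFa library for both genes. The lipid A median over the TNFa value was 1.94-fold for Nfkbia at 0.5 h, 6.05-fold at 1 h, 3.46-fold at 2 h and 2.29-fold at 6 h, and 1.02-fold, 10.5-fold, 5.81-fold and 7.49-fold for Tnip3. The share of 5155 genes with all 10 lipid A libraries above the TNFa library was 6.67%, 7.31%, 13.5% and 11.2% at these times. The sample titles give the TNFa course its own 0 h library and do not say whether it was prepared together with the knockout series. Stimulus and any difference between these sets therefore cannot be told apart except through each set's own 0 h libraries.

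The change from 0 h under TNFa minus that under lipid A was -2.70 ± 1.16 (SE) for Nfkbia at 1 h and -2.89 ± 1.14 for Tnip3 (limma, adjusted p = 0.293 and 0.238), and none of the 8 contrasts was called. The TNFa arm has 1 library per time, so the spread behind these p-values comes from the lipid A libraries alone and assumes that TNFa libraries vary like them. The background called lower was 0.114% at 1 h, 0.227% at 2 h and 0.114% at 6 h. These calls turn on 1 numbered course, left out at all times: without replicate 1 of the Nfkbid wild type, Nfkbia was called lower under TNFa at 1 h (-2.73, adjusted p = 6.3e-06), 2 h (-1.86, 0.00111) and 6 h (-1.23, 0.0386), and Tnip3 at 1 h (-2.97, 0.0343). In that fit 2.25%, 3.96% and 1.75% of genes were called lower at 1, 2 and 6 h. Without replicate 1 of the Nfkb1 wild type as well, Tnip3 was also called at 2 h (-2.13, 0.0182) and 6 h (-2.55, 0.0101), beside 3.2%, 5.49% and 2.9% of genes called lower at 1, 2 and 6 h. That numbered course was the lowest wild-type one for Tnip3 at 1, 2 and 6 h and was left out after the values were seen. The added calls are therefore no separate support. The median gene was higher under TNFa than under lipid A by 0.35 to 0.41 in the fit with all libraries, while both genes were lower at 1 to 6 h.

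The fall from 0.5 to 1 h itself was deeper under TNFa by -1.68 for Nfkbia and -3.36 for Tnip3 (limma, adjusted p = 1.00 after rounding and 0.294). Without both replicate 1 courses it was -1.74 and -3.24 and called for both (limma, adjusted p = 0.00253 and 0.00219, background 3.09% of 5593 genes). Here too each end of the TNFa step is 1 library, and the p-values rest on the spread of the lipid A libraries. This contrast, and the fit without both courses, were added after the values were seen, so those calls are no separate support.

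**Figure D4:**
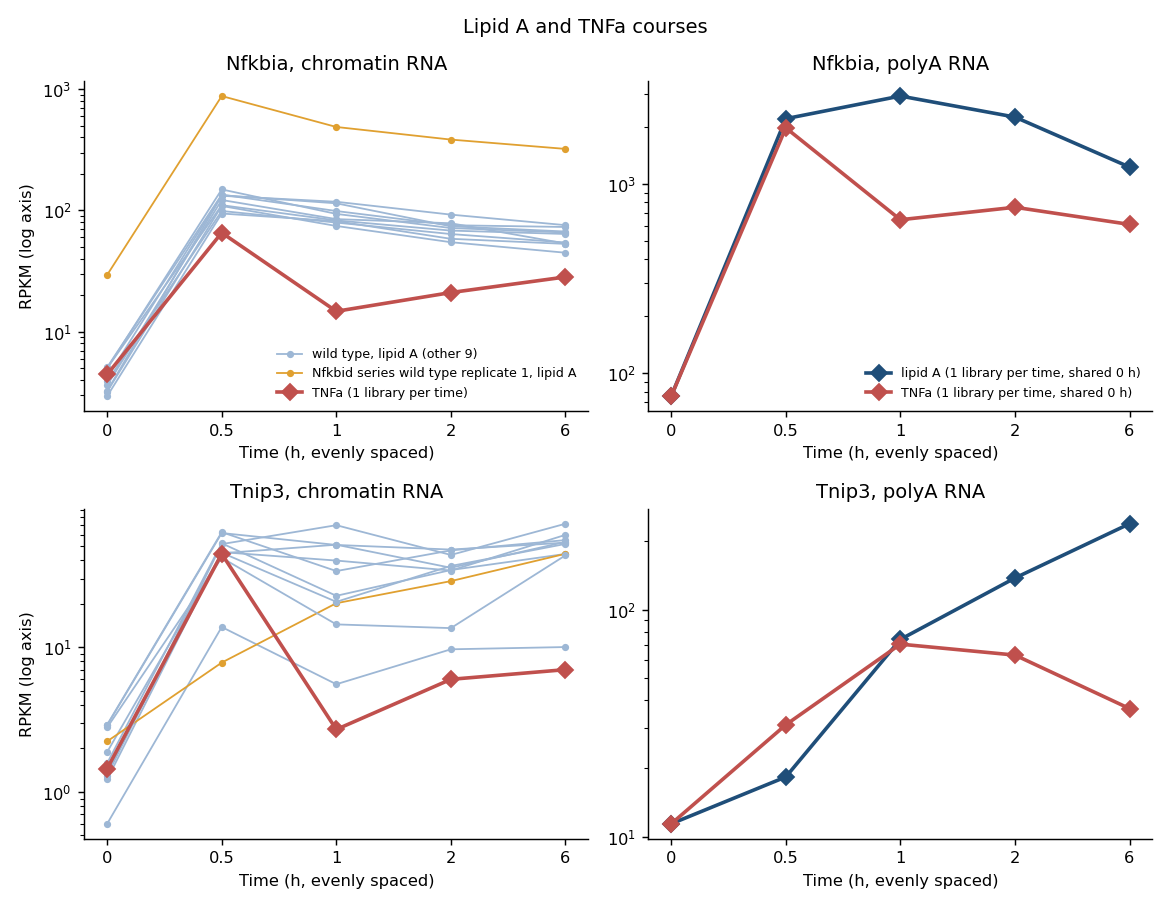
RPKM (log axis) of Nfkbia and Tnip3 against hours of stimulus, under lipid A and under TNFa, in chromatin RNA (left) and polyA RNA (right), with points for libraries. In chromatin RNA the TNFa points fall from 65.5 to 14.7 (Nfkbia) and from 44.4 to 2.70 (Tnip3) between 0.5 and 1 h, while Tnip3 polyA RNA under TNFa is highest at 1 h.

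In polyA RNA under TNFa, Nfkbia was highest at 0.5 h, as in chromatin RNA, and Tnip3 at 1 h, where its chromatin RNA was already low. Levels are not compared between the RNA fractions, since the gene length behind the polyA values is not given in the sources used here. Nfkbia polyA RNA was at 75.7 RPKM unstimulated, at 1981 after 0.5 h of TNFa, at 647 at 1 h, at 754 at 2 h and at 612 at 6 h. Under lipid A it was at 2215, 2919, 2259 and 1229. The drop at 1 h was seen under TNFa only, and each value is 1 library.

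Tnip3 polyA RNA was at 11.4 RPKM unstimulated, and under TNFa at 31.1, 70.5, 63.1 and 36.7 at 0.5, 1, 2 and 6 h. Under lipid A it was at 18.3, 74.0, 138 and 239. It was highest at 1 h under TNFa and at 6 h under lipid A, so that lipid A over TNFa was 0.589-fold at 0.5 h, 1.05-fold at 1 h, 2.19-fold at 2 h and 6.52-fold at 6 h. The ratios for Nfkbia were 1.12, 4.51, 3.0 and 2.01. A lipid A level at least 2-fold above TNFa was found in 1.44%, 3.39%, 4.46% and 7.1% of genes at the 4 times.

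With time as a block over the 4 pairs of libraries, the mean difference of lipid A from TNFa was 1.23 ± 0.40 (SE) for Nfkbia and 0.78 ± 0.70 for Tnip3 on the log2 scale (limma, adjusted p = 0.425 and 0.704). No gene of 9325 was called, and 59 went up and 3 down with p left unadjusted (under 0.05, at least 2-fold). Tnip2 stayed between 13.4 and 21.2 RPKM in all 9 libraries.

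The ERK inhibitor libraries resolve the first hour. In DMSO-treated cells Nfkbia was at 6.54, 107, 121 and 94.4 RPKM at 0, 15, 30 and 60 min of lipid A, and with the inhibitor at 5.90, 93.4, 110 and 97.3. Tnip3 was at 1.28, 14.9, 31.9 and 21.6 with DMSO and at 0.748, 11.7, 23.0 and 50.8 with the inhibitor. At 15 min Nfkbia was already 16.3-fold and Tnip3 11.7-fold above 0 min in DMSO, where 6.79% of 2842 genes were at least 2-fold up.

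Nfkbia was slightly lower with the inhibitor at 0 to 30 min and slightly higher at 60 min. Tnip3 was lower with the inhibitor at 0 to 30 min and 2.35-fold higher at 60 min, where 4.6% of 2176 genes were at least 2-fold higher. The mean difference over the 4 times was -0.10 ± 0.15 (SE) for Nfkbia and -0.03 ± 0.32 for Tnip3 (limma, adjusted p = 0.790 and 0.984). The Tnip3 value was 0.01 with a pseudocount of 1. No gene of 3409 was called, and 3 went up and 9 down with p left unadjusted (under 0.05, at least 2-fold). This mean does not test the single Tnip3 value at 60 min, which has no replicate.

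IkBz overexpression, named in the labels for the protein that Nfkbiz encodes, was read in polyA RNA. Nfkbiz was not analysed here, so whether its level was raised was not checked. Nfkbia was at 63.8 RPKM in control and 65.6 in IkBz-overexpressing cells unstimulated, at 527 and 611 after 2 h of TNFa, and at 962 and 934 after 2 h of lipid A. Tnip3 was at 4.15 and 5.08 unstimulated, at 56.7 and 34.0 after TNFa, and at 187 and 89.8 after lipid A. Nfkbia was lower in overexpressing cells only after lipid A, and Tnip3 was 1.67-fold lower under TNFa and 2.09-fold lower under lipid A.

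At least 2-fold lower levels were found in 1.68% of 6183 genes under TNFa and in 1.86% of 6035 under lipid A. The mean difference over the 3 conditions was 0.07 ± 0.07 (SE) for Nfkbia and -0.51 ± 0.24 for Tnip3 (limma, adjusted p = 0.516 and 0.218), neither called, beside 0.707% of 6510 genes called lower. Of the listed pathway genes, Ier3, an NF-κB-induced early response gene, fell by 1.07 and Tlr4 by 1.11.

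The J2 columns name no unit and are taken as RPKM from the table they stand in. In J2 BMDM, polyA RNA of Nfkbia was higher at 2 h of lipid A in each pair of libraries: from 36.6 to 348 RPKM in wild type, from 35.0 to 277 in Nfkb1-/-, and from 43.5 to 283 and from 17.7 to 237 in the Nfkb1-/-, Nfkb2-/- cells. Tnip3 went from 10.4 to 48.8 RPKM in wild type, from 21.7 to 81.9 in Nfkb1-/-, and from 22.1 to 64.0 and from 0.608 to 13.7 in the Nfkb1-/-, Nfkb2-/- cells. The 2 Nfkb1-/-, Nfkb2-/- libraries were 36.4-fold apart for Tnip3 at 0 h and 4.68-fold at 2 h. At both times they lay on either side of the wild-type value. The single Nfkb1-/- library was at least 2-fold above wild type for Tnip3 at 0 h, as were 2.75% of genes, and 5.82% of genes were at least 2-fold up at 2 h in wild type.

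The wild-type change over 2 h was 3.23 ± 0.67 (SE) on the log2 scale for Nfkbia (limma, adjusted p = 0.297) and 2.17 ± 2.42 for Tnip3 (0.908), and in the Nfkb1-/-, Nfkb2-/- cells 3.20 ± 0.47 for Nfkbia (0.140), where 0.106% of 6620 genes were called higher. Nfkb1-/- minus wild type was -0.06 and -0.33 for Nfkbia at 0 and 2 h and 1.02 and 0.74 for Tnip3. No genotype contrast was called (adjusted p of 0.999 or more), for these or any of 6620 genes, of which at most 162 went down and 83 up with p left unadjusted (under 0.05, at least 2-fold). The single wild-type and Nfkb1-/- libraries take their spread from the Nfkb1-/-, Nfkb2-/- pairs.

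**Figure D5:**
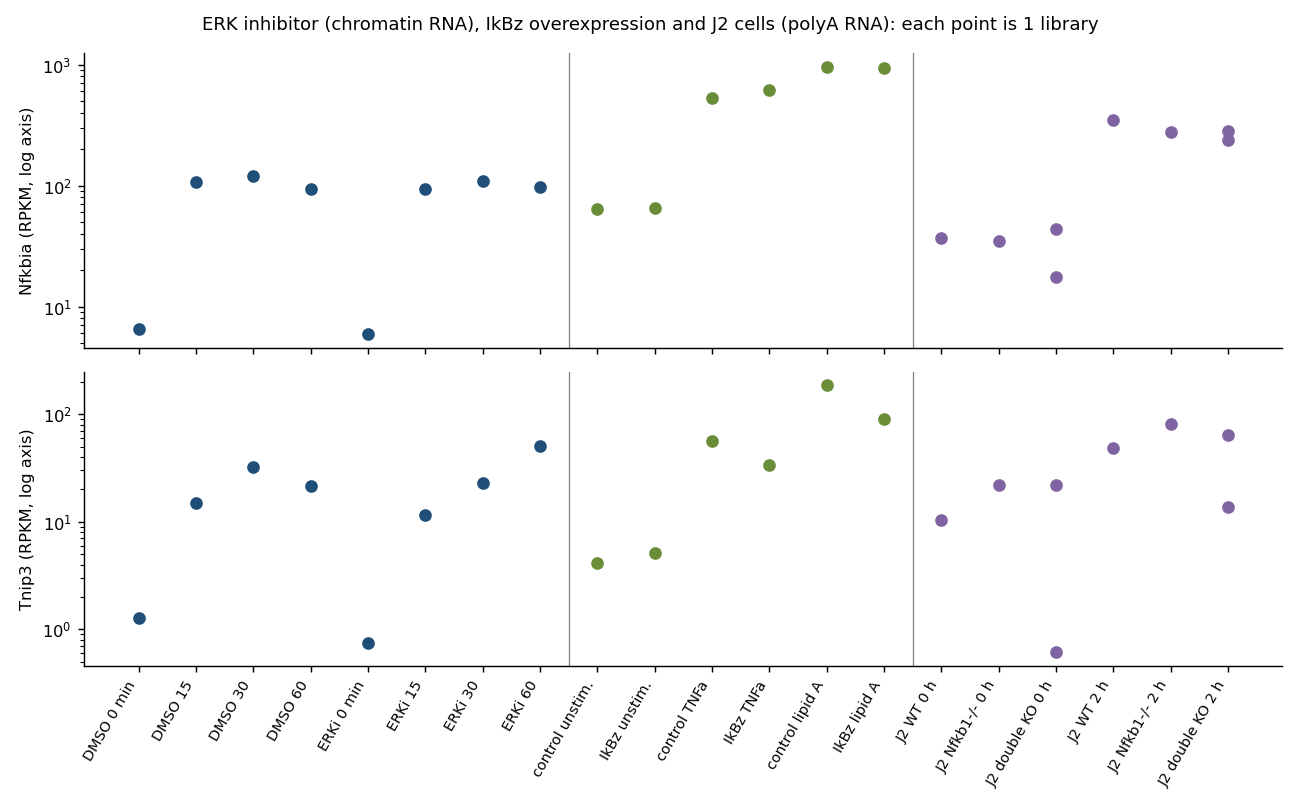
RPKM (log axis) of Nfkbia and Tnip3, 1 point per library, in the ERK inhibitor series (chromatin RNA, min of lipid A), the IkBz overexpression series and the J2 cells (polyA RNA). Nfkbia points of control and treated cells lie together, Tnip3 is at 187 and 89.8 RPKM in control and IkBz-overexpressing cells after lipid A, and the 2 J2 Nfkb1-/-, Nfkb2-/- libraries are far apart for Tnip3.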

How the data were processed

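The authors deposited 1 table for 15196 genes in 136 libraries, with mm9 gene coordinates. Its values are RPKM, per the file headers, except that the 8 J2 columns name no unit and were taken as RPKM. HISAT2 and SAMtools are named in the submitters' processing notes, and versions and the counting tool are not given in the sources used here. The extraction protocol in the labels describes chromatin RNA for all libraries, also for those labelled polyA, so how the polyA libraries were made is uncertain. Chromatin RPKM is scaled over the whole gene span with introns, which dilutes mature RNA. Whole reads were recovered from the low RPKM values of the chromatin libraries (97.4 to 100% of values worth at most 30 reads lay within 0.02 of a whole number). Depth was 7.86 to 45.3 M reads in chromatin and was not recovered in this way for polyA, whose depth is taken as unknown. The most frequent low value put the J2 and overexpression libraries at 15.0 to 63.1 M, without the check for whole numbers. Recovered reads serve for depth and counting intervals only. Matching columns to samples used titles.

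RPKM values were tested as log2(RPKM + 0.5) with limma 3.58.1 in R 4.3.3 (trended empirical Bayes). P-values were adjusted by Benjamini-Hochberg over all genes with 1 RPKM or more in as many libraries as the smallest group holds. The wild-type lipid A course was 1 fit over the 4 knockout series with series as a term. The TNFa comparison added the TNFa libraries to it as a further series. Nfkbiz-/- and Nfkb1-/- effects were compared in 1 fit of both series, and every other comparison had 1 fit of its own series. Single-library comparisons give values without a test, or 1 mean over times. Differences understate changes of low genes because of the pseudocount. The Tnip3 to Nfkbia ratio was tested by exact permutation within series. The script was tested on simulated data: in the Nfkbiz series at 2 h, 93.5% of 92 genes set to a log2 change of 1.5 were called and 98.8% of 85 set to 2.5, and in the Nfkb1 series 72.3% of 94 and 90.2% of 92. Genes called without a set change numbered 1 in the Nfkbiz and 6 in the Nfkb1 series. The simulated libraries varied independently, unlike the real ones of the same replicate number, so these shares do not carry over to single genes.

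Libraries of the same replicate number deviated together: knockout and wild type correlated at 0.61 to 0.92 (Nfkb1), 0.45 to 0.73 (Nfkbiz), 0.27 to 0.76 (Bcl3) and 0.89 to 0.97 (Nfkbid), and successive wild-type times at 0.31 to 0.95. Blocked values are therefore given where they change a call. Alternatives were pseudocounts of 0.1 and 1, no filter or 3 RPKM, median centring, the block, 1 fit of 4 series and leaving out libraries. The named genes are Nfkbia, Tnip3 and their paralogs and partners, up to 4 called genes of the largest difference per list, and the 5 genes most correlated with each. The members, lists and alternatives were chosen with earlier results of these data known.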

Additional observations from a re-analysis of the deposited data

Results flagged for a closer look

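Nfkbia in replicate 1 of the Nfkbid wild type stood far from the other 9 wild-type libraries at all 5 times: 29.4, 877, 487, 384 and 321 RPKM at 0, 0.5, 1, 2 and 6 h, with the next highest at 5.10, 149, 118, 92.3 and 75.6. The same library had Malat1 at a small fraction of the level of the others, and the Nfkbid-/- library of that number was as high for Nfkbia, at 302 to 937 RPKM from 0.5 to 6 h. Its Tnip3 level was not high. Tnip3 in replicate 1 of the Nfkb1 wild type was low at 6 h, at 10.1 RPKM with the next lowest at 43.4. In all, 10 groups of 10 libraries were tested by the gap of the extreme library over the range, and chance alone marks about 1 in 20. The 5 Nfkbia values come from 1 numbered course and are not independent.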

How the results depend on the processing

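All 8 rises of the wild-type lipid A course kept their call under every alternative run. The 4 calls of the Nfkbiz series were kept under both pseudocounts, both filters, median centring and the replicate block. The 1 fit of the 4 series called 0 of the 4, and leaving out single libraries 0 to 3. The Nfkb1 series had 1 call with a replicate block at each time. The Bcl3 series had calls for Tnip3 when replicate 2 of Bcl3-/- was left out at all times. TNFa against lipid A had 4 calls without the Nfkbid wild-type replicate 1 and 6 without both replicate 1 courses. The latter fit was added after the values were seen. The block changed no other call of the pair beyond those given beside the results. In the paired form the ratio steps of -0.70, 0.52 and 0.78 passed. Without the Nfkbid replicate 1 those of -0.42 and 0.77 did, and without both replicate 1 courses those of -0.32 and 0.79. The TNFa steps of Tnip3 moved from 4.53, -3.81 and 1.02 to 4.84, -3.99 and 1.12 with a pseudocount of 0.1 and to 4.21, -3.62 and 0.92 with 1, by construction.

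Uncalled differences turned sign as follows, and the cause was not tested. Tnip3 under TNFa minus lipid A at 0.5 h was -0.0096 with median centring, and under the ERK inhibitor 0.0073 with a pseudocount of 1. In the Nfkb1 series Tnip3 was 0.063 at 1 h and 0.030 at 2 h without replicate 1 of both genotypes, with or without the replicate block. Leaving out 1 replicate number of 1 genotype at all times gave -0.60 to 0.044, -0.96 to 0.34, -0.88 to 0.84, -1.21 to 0.62 and -1.91 to 0.13 for Tnip3 at 0, 0.5, 1, 2 and 6 h, and -0.062 to 0.14 for Nfkbia at 0 h. The same ranges for Tnip3 were -0.58 to 0.30 at 0 h and -0.25 to 0.26 at 0.5 h in the Nfkbiz series, and -1.93 to 0.18 at 0.5 h in the Bcl3 series. In the Nfkbiz and Bcl3 series these fits leave 1 library in a group, assumed to vary like the others.

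Counts of called genes moved too. In wild type, genes called higher were 272 at 0.5 h and 431 at 6 h, and 536 and 674 with median centring. In the Nfkbiz series, genes called lower were 58 at 2 h and 6 in the 1 fit of 4 series. At 6 h they were 177, and 419 with a pseudocount of 0.1, 104 with 1, 91 with median centring and 23 in the 1 fit. No counts were tested as such, and depth is taken as unknown for the polyA libraries.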
